A study of Mus musculus with 6 samples.

Results

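The kinesin and tubulin genes were described in 6 RNA-seq libraries of mouse 1-cell embryos. The set held the protein-coding genes whose symbol starts with Kif and a digit, or with Tuba, Tubb or Tubg, which gave 62 of the 36065 genes of the table and of its 21785 protein-coding genes. Of these, 39 carried a Kif symbol and 23 a tubulin symbol. The symbol rule also takes in Kif1bp, a protein that binds kinesins, and 5 Tubgcp genes for the proteins that hold gamma-tubulin in its nucleating complex, and these were kept as classes of their own. All embryos were wild type (WT) and cultured in vitro, with DMSO as the control, with CBR-5884 (CBR), an inhibitor of serine metabolism, or with CBR-5884 and S-adenosylmethionine (CBR+SAM), the methyl donor of most methyltransferases. Each group had 2 biological replicates, per the series' design text. The dose, the hours in culture and the number of embryos per library were not given in the sources used here.

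Microtubules are hollow polymers of alpha- and beta-tubulin, started from rings of gamma-tubulin. Kinesins are ATP-driven motors: some build the spindle, move chromosomes and close the division furrow, whereas others carry organelles and vesicles along the microtubule tracks. The 1-cell embryo inherits its transcripts from the oocyte, forms a spindle without centrioles in the mouse, and divides before it makes most of its own mRNA.

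The libraries carried the transcripts of the labelled cell. All 10 oocyte and zygote markers were high enough to test, and their sum ran from 22258 to 27847. Sums were 11.5 to 16.3 for the sperm markers, 0 to 0.635 for the blood markers, and 237 to 616 for the 10 cumulus markers, of which 2 were tested. The cumulus sum was mostly Serpine2, at 224.5 to 602, and none of the untested cumulus markers exceeded 0.496 in any library. CBR+SAM replicate 2 had the lowest cumulus sum and the highest oocyte sum, and stood apart in the motor genes as well, as described below. Single oocyte markers went both ways there. Dppa3 (17885, most of the sum), Btg4, Ooep and Zp1 were at their highest of the 6 libraries. Bmp15 (1126), Nlrp5 (115) and Zp2 (54.4) were at their lowest. Whether embryos and accompanying cells differed in number between libraries was not tested. A value is an abundance divided by transcript length, so levels of different genes can be set side by side. In bulk libraries, fewer cells of a type and less RNA per cell cannot be told apart.

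Motors of the spindle stood far above motors of transport by median and by sum, although single genes of the classes overlapped in level. Of the 13 spindle motors 12 were tested, which needed values reaching 1 in 2 or more libraries, and 10 had a mean of at least 10. Of the 16 transport motors 10 were tested and 7 had a mean of at least 10, whereas of the 9 motors of cilia and other roles 2 were tested. The median of the mean levels was 23.5 for spindle motors, 2.33 for transport motors and 0.0775 for the ciliary and other motors, against 0.876 for all protein-coding genes. Over the whole set 43 of 62 genes (69.4%) were tested, compared with 50.6% of all protein-coding genes, and 5 genes (Kif2b, Kif12, Kif19a, Tuba8 and Tubb1) were listed at 0 in every library.

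The order of the spindle motors began with 3 genes whose ranges did not overlap. In what follows, each pair of values gives replicates 1 and 2. Kif23 (ENSMUSG00000032254, chr9:61915905-61946774 of mm10, minus strand), a subunit of the centralspindlin complex that bundles microtubules at the division plane, stood at 398 and 434 (DMSO), 463 and 482 (CBR), and 472 and 328 (CBR+SAM). Kif20b (chr19:34922361-34975745, plus strand), a motor of late cytokinesis, had levels of 248 and 252, 263 and 284, and 282 and 233. For Kif18a (chr2:109280738-109341747, plus strand), which dampens the movements of chromosomes at metaphase, they were 121 and 131, 135 and 129, and 131 and 99.5. Each of the 3 was higher in its lowest library than the next gene in its highest, and each had its lowest value in CBR+SAM replicate 2. With a mean of 429, Kif23 ranked 349 among the protein-coding genes, Kif20b with 260 ranked 566, and Kif18a with 125 ranked 1147.

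A second tier of spindle motors lay between means of 22.6 and 41.8, with ranges that overlapped from one gene to the next. Kif2c, a microtubule depolymerase of the centromere, stood at 40.7 and 43.1 (DMSO), 46.8 and 41.0 (CBR), and 37.4 and 41.8 (CBR+SAM). Kif20a, which brings Aurora B to the central spindle, stood at 37.6 and 39.8, 40.4 and 40.7, and 42.6 and 28.4. The levels of Kif22, a motor on chromosome arms, were 35.5 and 39.0, 32.7 and 30.02, and 33.4 and 21.4. Kif20a was low in a single library, CBR+SAM replicate 2, while Kif22 was higher in both DMSO libraries than in the other 4. Kif2a, a depolymerase of spindle poles, gave 22.4 and 22.7, 23.2 and 23.2, and 20.8 and 28.7, and so was highest in the library where Kif20a and Kif22 were lowest. Kif4, a chromosome-bound motor that sets the length of the central spindle, gave 22.5 and 21.1, 25.2 and 23.7, and 24.0 and 18.9.

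Below these stood the midzone motor Kif14 at 15.6 to 18.7 and Kif11, the motor that pushes the spindle poles apart, at 14.9 to 18.1. Kif15, a motor that can stand in for Kif11, reached 4.74 and 3.57 (DMSO), 2.16 and 2.48 (CBR), and 3.37 and 5.13 (CBR+SAM). Both CBR libraries were thus below the other 4. Kif18b, which trims astral microtubules, stood at 0.802 and 2.18, 0.877 and 1.59, and 1.02 and 1.92, higher in replicate 2 of each group than in any replicate 1.

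The transport motors were led by Kif3a (ENSMUSG00000018395, chr11:53567379-53601967, plus strand), a subunit of the kinesin that serves cilia and vesicles. It stood at 54.6 and 69.5 (DMSO), 68.2 and 70.4 (CBR), and 64.6 and 31.1 (CBR+SAM), and CBR+SAM replicate 2 was below the other 5. Its partner subunit Kif3b reached only 2.47 to 3.96. Kif5b, a heavy chain of conventional kinesin, stood at 36.1 and 37.0, 36.2 and 37.2, and 51.2 and 28.5, so that the highest and the lowest of the 6 libraries were the CBR+SAM replicates. Kif17, a motor for dendritic and ciliary cargo, ran at 41.4 and 37.4, 36.2 and 33.2, and 38.2 and 32.6. The ranges of Kif3a, Kif5b and Kif17 overlapped.

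The remaining transport motors were lower. The highest were the endosome motor Kif16b at 13.5 to 22.4, Kif13b at 11.8 to 25.4, the organelle motor Kif1b at 12.8 to 14.7, and Kif5c, a neuronal heavy chain, at 9.33 to 12.2. Values of 0.823 to 3.47 were found for Kif13a and of 0.919 to 1.68 for Kif21a. Kif21b, Kif3c, Kif28, Kif1c, Kif5a and Kif1a were below 1 in every library, the highest of them Kif21b at a mean of 0.617. Among the ciliary and other motors, Kif24, which restrains cilium assembly at the centriole, stood at 16.3 and 13.2 (DMSO), 17.0 and 15.7 (CBR), and 14.8 and 11.8 (CBR+SAM), and the Hedgehog pathway motor Kif7 at a mean of 0.0297. The kinesin-binding Kif1bp gave 13.2 and 9.53, 10.5 and 9.49, and 10.6 and 9.60, so its highest value was that of DMSO replicate 1.

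**Figure D1:**
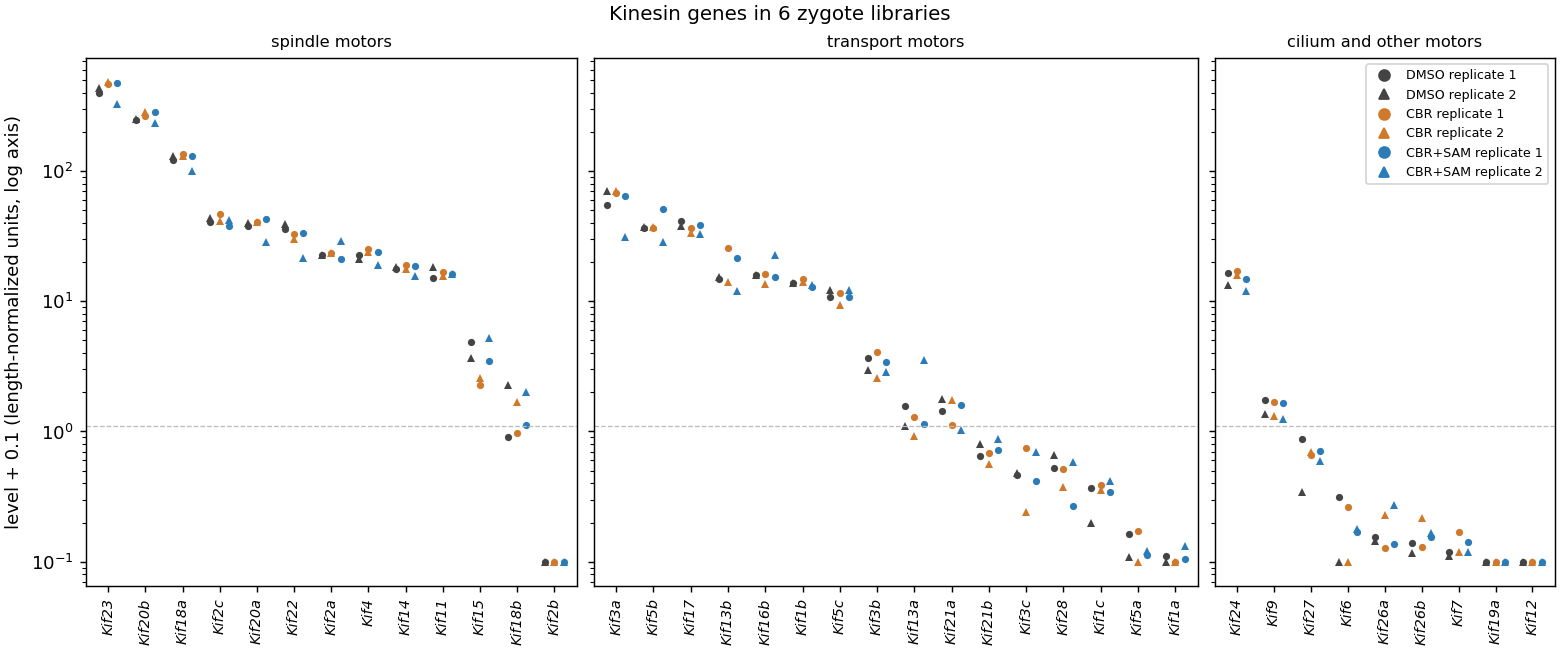
Levels of the kinesin genes in the 6 libraries, plotted as level + 0.1 on a log axis in length-normalized units, by class, with colours for the groups, shapes for the replicates and a dashed line at a level of 1. The points of Kif23, Kif20b and Kif18a stand above all others without overlap, and most transport and ciliary motors lie below 10.

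Within each library the summed level of the spindle motors was 4.89 to 5.52 times that of the transport motors. The spindle sums were 964 and 1024 (DMSO), 1068 and 1091 (CBR), and 1083 and 838 (CBR+SAM). Transport sums in the same order were 195 and 208, 216 and 198, and 221 and 161. Both classes had their lowest sum in CBR+SAM replicate 2, and the ratio moved much less than the sums. On the log2 scale the ratio was 2.30 ± 0.0055 with DMSO, 2.38 ± 0.114 with CBR and 2.33 ± 0.0629 with CBR+SAM (mean ± SD, n = 2), and the ranges of all 3 groups overlapped. An exact permutation test of 2 against 2 libraries cannot go below p = 0.333, so the groups were not tested for this ratio. Few genes set it: Kif23, Kif20b and Kif18a made up 78.8% to 82.1% of the spindle sum, and Kif3a, Kif5b and Kif17 made up 57.3% to 71.2% of the transport sum.

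**Figure D2:**
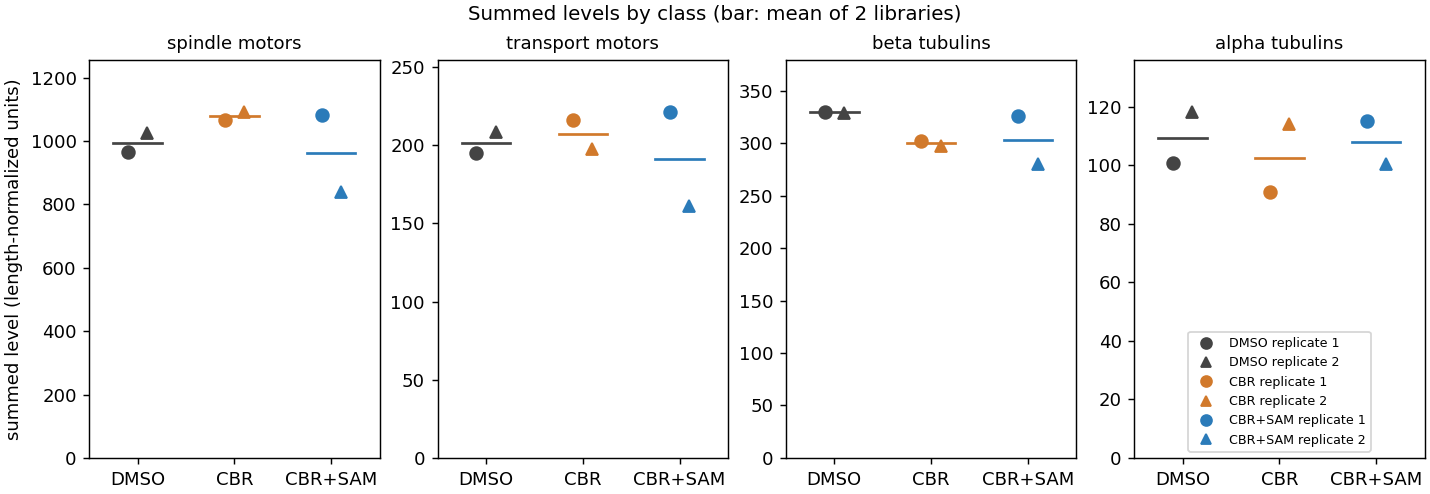
Summed levels of the spindle motors, transport motors, beta-tubulins and alpha-tubulins in length-normalized units, with a point for each library and a bar for the mean of 2. The spindle sums run from 838 to 1091 and the transport sums from 161 to 221, both lowest in CBR+SAM replicate 2.

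The promoters of the 2 motor classes were compared for a word known from cell cycle genes. The cell cycle genes homology region, with the core TTTGAA, is bound by the complexes that repress and activate genes of mitosis, and it often lies close to the transcription start. RefSeq promoters of GRCm38.p6, 250 bases before to 50 bases after the start, were matched for 50 of the 62 members. TTTGAA on either strand was found for 9 of 12 spindle motors and 1 of 11 transport motors, compared with 20.2% of the 27025 genes of the promoter table and 15.3% of protein-coding genes with a mean of at least 10. These 12 are not the 12 tested spindle motors: Kif20a was not matched, and Kif2b, listed at 0, was. A gene with several promoters was counted if any of them held the word. A distance of up to 30 bases from the start was set after the positions had been seen. Within it lay the word of 7 of the 12 spindle motors and 0 of the 11 transport motors, against 3.72% of all genes. These are the 7 sites, 30 bases each and 5′ to 3′ on the strand of the gene, with the word in capitals (TTCAAA is TTTGAA on the other strand):
Kif23: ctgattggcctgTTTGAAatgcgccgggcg
Kif20b: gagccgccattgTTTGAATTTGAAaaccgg
Kif4: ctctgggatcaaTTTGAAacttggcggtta
Kif18b: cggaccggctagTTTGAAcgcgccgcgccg
Kif11: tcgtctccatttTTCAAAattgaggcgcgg
Kif15: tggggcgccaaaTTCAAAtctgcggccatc
Kif22: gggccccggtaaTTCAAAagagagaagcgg
The sites lie at chr9:61946780-61946809 (Kif23, minus strand), chr19:34922353-34922382 (Kif20b, plus), chrX:100626072-100626101 (Kif4, plus), chr11:102925104-102925133 (Kif18b, minus), chr19:37376351-37376380 (Kif11, plus), chr9:122951050-122951079 (Kif15, plus) and chr7:127042420-127042449 (Kif22, minus). Kif20b held the word in 2 adjoining copies. The words of Kif14 and Kif2c lay 228 and 103 bases before the start. Some RefSeq starts lie inside the GENCODE gene bounds, among them those of Kif14, Kif2c, Kif4 and Kif1a.

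The genes with a word near the start included the highest tested spindle motors, Kif23 and Kif20b, and the lowest, Kif15 and Kif18b. Kif18a, next to Kif20b by level, held no TTTGAA in its 300 bases, and the word of a transport motor belonged to Kif1a, whose mean was 0.008. CCAAT, the core of the CCAAT box bound by NF-Y, was found on either strand in 7 of 12 spindle motors, 3 of 11 transport motors and 41.1% of all genes, and it shares no base with TTTGAA where both are printed. The 250 bases before the start are shown for the highest spindle motor, a spindle motor with both words upstream, and the highest transport motor, with CCAAT (or ATTGG) and TTTGAA (or TTCAAA) in capitals:
Kif23: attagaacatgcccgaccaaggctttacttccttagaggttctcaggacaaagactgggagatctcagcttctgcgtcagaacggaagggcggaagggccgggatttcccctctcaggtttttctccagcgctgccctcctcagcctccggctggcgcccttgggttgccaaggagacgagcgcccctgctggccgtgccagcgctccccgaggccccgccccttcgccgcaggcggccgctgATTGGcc
Kif22: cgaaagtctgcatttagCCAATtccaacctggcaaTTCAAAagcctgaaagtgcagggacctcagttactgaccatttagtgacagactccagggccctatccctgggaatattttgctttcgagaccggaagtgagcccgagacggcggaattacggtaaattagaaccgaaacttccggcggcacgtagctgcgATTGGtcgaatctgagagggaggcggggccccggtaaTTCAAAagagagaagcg
Kif3a: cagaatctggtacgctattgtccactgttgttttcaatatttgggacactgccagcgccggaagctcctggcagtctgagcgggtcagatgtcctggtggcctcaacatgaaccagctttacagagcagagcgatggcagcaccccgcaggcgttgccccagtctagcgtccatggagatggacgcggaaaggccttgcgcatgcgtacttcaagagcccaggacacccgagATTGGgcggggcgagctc
They lie at chr9:61946800-61947049 (Kif23, minus strand), chr7:127042421-127042670 (Kif22, minus) and chr11:53567119-53567368 (Kif3a, plus). Kif22 shows TTTGAA at both ends of the stretch, and Kif3a shows ATTGG without TTTGAA. The promoters of spindle motors had a median GC content of 60.7% and those of transport motors of 69.3%. A match describes letters and not a bound site.

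Tubb4b held most of the summed beta-tubulin transcript level, and no single gene held as large a share among the alpha-tubulins. Tubb4b (ENSMUSG00000036752, chr2:25222160-25224702, minus strand), a widely expressed beta-tubulin, stood at 189 and 170 (DMSO), 169 and 163 (CBR), and 185 and 148 (CBR+SAM), which was 51.8% to 57.3% of the summed beta-tubulins. Tubb2a followed at 51.3 and 60.3, 47.9 and 47.8, and 49.9 and 37.7, and both DMSO libraries were above the other 4. Tubb3, the beta-tubulin used as a marker of neurons, stood at 39.7 and 42.7, 40.2 and 40.6, and 38.9 and 43.3, a narrower range, relative to its level, than that of any other beta-tubulin tested. Tubb6 stood at 26.0 and 33.4, 22.7 and 26.0, and 29.3 and 24.98. Tubb2b ran from 12.2 to 16.8 and Tubb5, the main beta-tubulin of most dividing cells, from 7.21 to 9.37. The brain gene Tubb4a did not exceed 0.131.

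The highest alpha-tubulin was Tubal3 (ENSMUSG00000021216, chr13:3918274-3935277, plus strand), an alpha-tubulin-like gene. It stood at 40.9 and 49.5 (DMSO), 41.7 and 52.8 (CBR), and 50.04 and 42.1 (CBR+SAM), with overlap of all groups, and made up 40.6% to 46.2% of the alpha-tubulin sum. Tuba4a, whose product lacks the C-terminal tyrosine of other alpha-tubulins, stood at 20.4 and 25.6, 16.6 and 25.4, and 24.5 and 16.9. Tuba1c stood at 24.6 and 20.9, 17.5 and 18.2, and 21.8 and 24.1, with both CBR libraries below the other 4. Tuba3a, known from testis, ran from 7.17 to 15.1, Tuba3b from 2.34 to 4.37 and Tuba1b from 2.29 to 3.70. Tuba1a stayed below 1. Beta-tubulin sums exceeded alpha-tubulin sums 2.61 to 3.32 times in the same library.

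Several of these levels rest on how reads were divided among near-identical copies. In GENCODE M21 transcripts, the share of 31-base words found in no other gene was 21.4% for Tuba1a, 31.1% for Tuba1b, 44.7% for Tuba1c, 43.6% for Tubb2a, 47.0% for Tubb4b and 51.6% for Tuba3a, against 98.3% for Kif23 and 99.2% for Tubal3. The coding sequences of Tuba1a and Tuba1b differed at 23 of 1353 bases, those of Tuba1b and Tuba1c at 25 of 1347, and those of Tubb2a and Tubb2b at 47 of 1335. For Tuba3a and Tuba3b, 41 of 1350 coding bases differed. The 60 bases with the most differences show what tells the Tubb2 copies apart. They are coding bases 112 to 171, with the 10 bases that differ in capitals:
Tubb2a: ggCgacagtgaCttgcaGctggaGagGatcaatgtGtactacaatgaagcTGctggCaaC
Tubb2b: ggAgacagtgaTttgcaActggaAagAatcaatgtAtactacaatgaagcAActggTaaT
The single values of Tuba1a and Tuba1b are therefore uncertain. A sum over copies depends less on the division among them, though not wholly free of it, since each value is divided by transcript length. The Tuba1a, Tuba1b and Tuba1c sum was 27.2 and 24.5 (DMSO), 21.2 and 21.5 (CBR), and 24.9 and 26.6 (CBR+SAM). Both CBR libraries were below the other 4, which repeats the order of Tuba1c, the main part of the sum. The Tubb2a and Tubb2b sum was 66.2 and 73.1, 61.9 and 60.1, and 63.5 and 54.5. The 6 pseudogene records that share words with the Tuba1 genes added 1.78 to 3.10 in all.

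**Figure D3:**
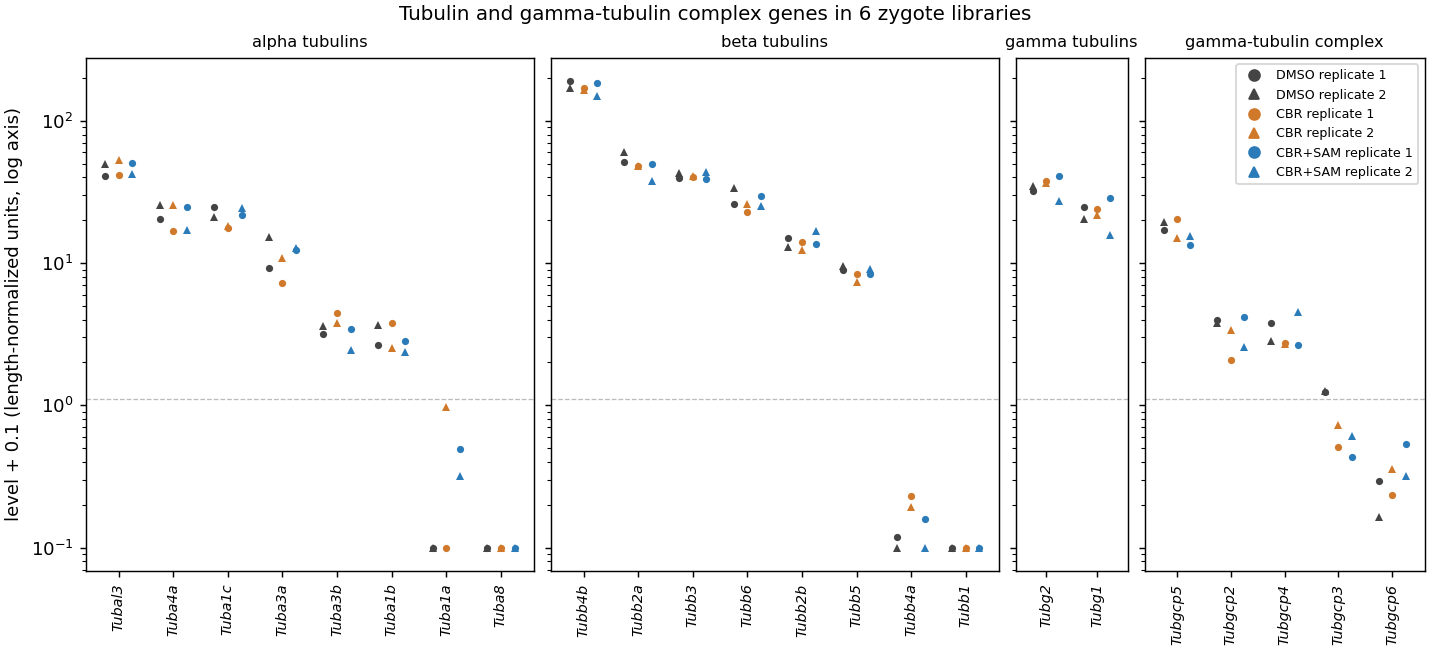
Levels of the tubulin and gamma-tubulin complex genes in the 6 libraries, plotted as level + 0.1 on a log axis in length-normalized units, with colours for the groups, shapes for the replicates and a dashed line at a level of 1. Tubb4b lies between 148 and 189, above every other tubulin, and Tuba8 and Tubb1 are listed at 0.

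Both gamma-tubulin genes were present. Tubg2 stood at 31.9 and 34.7 (DMSO), 37.5 and 36.4 (CBR), and 40.5 and 27.4 (CBR+SAM). Tubg1, the gamma-tubulin of most dividing cells, stood at 24.7 and 20.2, 23.7 and 21.7, and 28.4 and 15.5. Tubg2 exceeded Tubg1 in every library, by 1.29 to 1.76 times. The 2 genes share words, 23.6% of those of Tubg2 being found in Tubg1. Of the complex proteins that hold gamma-tubulin, Tubgcp5 stood at 17.1 and 19.4 (DMSO), 20.3 and 14.8 (CBR), and 13.2 and 15.3 (CBR+SAM), with overlap of all groups except CBR+SAM and DMSO. The others were lower, Tubgcp2 from 2.00 to 4.08 and Tubgcp4 from 2.56 to 4.42. Tubgcp3 stood at 1.14 and 1.16 with DMSO and at 0.33 to 0.63 in the other libraries, and Tubgcp6 stayed below 0.5.

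CBR+SAM replicate 2 stood apart in these genes, and the fitted changes named for CBR+SAM are given with and without it. It was the lowest of the 6 libraries for 20 of the 43 tested members, against 27.5% of all genes tested, and for 16 of the 31 with a mean of at least 10, against 36.3%. It was the highest for 7 of 43, against 29.3%. Among the members lowest there were 7 of the 12 tested spindle motors (Kif23, Kif20b, Kif18a, Kif20a, Kif22, Kif4 and Kif14), 5 of the 10 tested transport motors (Kif3a, Kif5b, Kif17, Kif13b and Kif21a) and both gamma-tubulins. After scaling to the same sum the count was 24 of 43, against 34.9%. The median difference between replicates of members with a mean of at least 10 was 0.298 on the log2 scale in CBR+SAM, 0.141 in DMSO and 0.107 in CBR. For all genes of that level it was 0.310, 0.136 and 0.154 in the same order, so the wide CBR+SAM spread was not particular to the members. The same library had the lowest level of Serpine2, which makes up most of the cumulus sum, at 224.5 against 496 to 602 in the other 5. The other tested cumulus marker, the aromatase gene Cyp19a1, was not low there, at 11.9 against 8.14 to 13.6. The part of accompanying cells in the low motor levels was not tested.

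**Figure D4:**
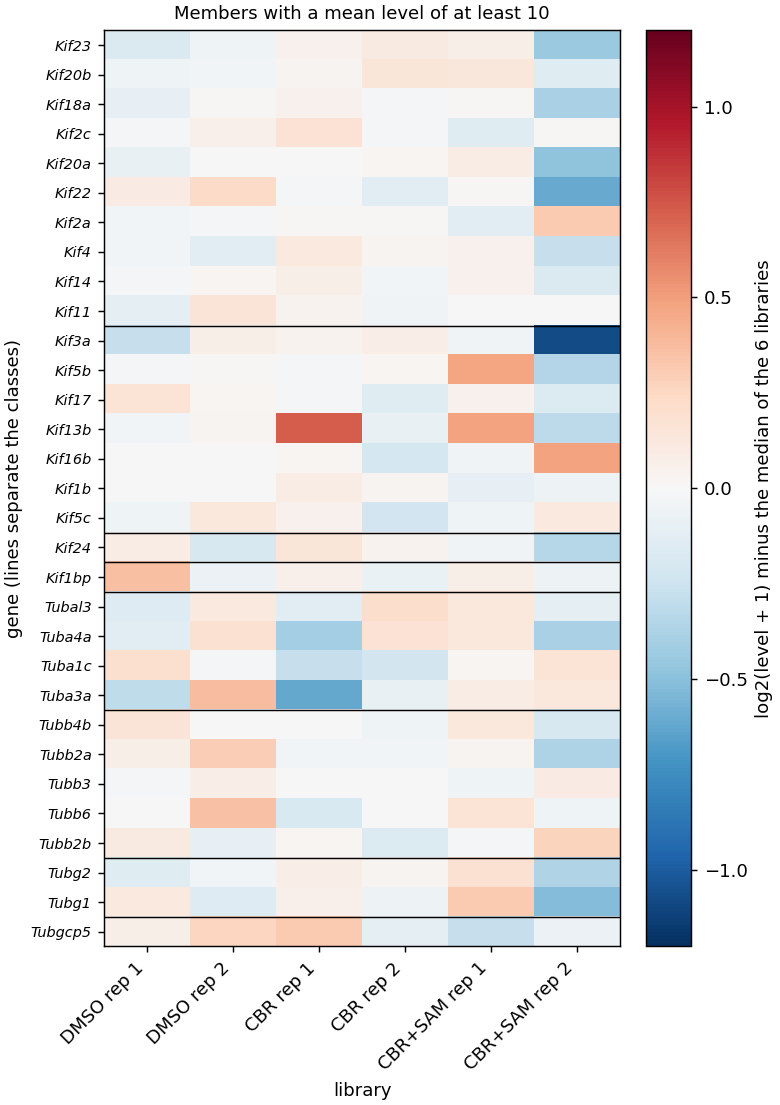
Difference of log2(level + 1) in each library from the median of the 6 libraries, for the 31 members with a mean of at least 10, in rows by class. Blue is below and red above that median, and the column of CBR+SAM replicate 2 holds the lowest value of 16 of the 31, while Kif2a and Kif16b are above their medians there.

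CBR was set against DMSO to ask whether the inhibitor of serine metabolism moves these genes. No member passed the test. Fitted changes were above 0 for 8 of the 12 tested spindle motors and below 0 for all 6 tested beta-tubulins. With limma, 0 of the 43 tested members passed an adjusted p of 0.05, as did 0% of the 12249 genes tested. At an unadjusted p under 0.05 the count was 1 of 43, against 2.12% of all genes. The fitted change was above 0 for 17 members and below 0 for 26, against 48.3% and 51.7% of all genes, with a median of -0.03 against -0.01 for all genes tested. The groups did not overlap for 8 members with CBR higher and 11 with CBR lower, where 15.7% and 17.3% of all genes did so.

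By class, CBR values were higher than DMSO values for 8 of 12 spindle motors, with a median log2 change of 0.05, and groups did not overlap for 5 higher and 2 lower, against 15.7% and 17.3% of all genes. Scaled to the same sum, these were 3 and 2, against 11.5% and 21.9%. Kif23 averaged 473 ± 13.3 with CBR and 416 ± 25.2 with DMSO (SD, n = 2), a log2 change of 0.18 (SE 0.19, 95% interval -0.27 to 0.63). The split of the spindle motors was 6 to 6 once libraries were scaled to the same sum, which moved the median of all genes to -0.04. Kif15 had the smallest p among the members: its log2 change was -0.63 (SE 0.24, interval -1.198 to -0.06, adjusted p = 1 with limma). For Kif22 the change was -0.24 (SE 0.22). The 10 transport motors split 4 higher to 6 lower with a median of -0.05, and Kif13b had the highest value, 0.32 (SE 0.34), which rested on CBR replicate 1 (25.4) and was -0.086 without it.

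The beta-tubulin sum was 330 and 329 with DMSO and 302 and 297 with CBR, and both CBR libraries were below both DMSO libraries. In CBR+SAM the sum was 325 and 280, one above and one below both CBR libraries. All 6 tested beta-tubulins had a fitted change below 0 in CBR, with a median of -0.16, and groups did not overlap for Tubb4b, Tubb2a, Tubb5 and Tubb6, which is 4 of 6 against 17.3% of all genes. With median-ratio size factors it was 2 of 6, against 15.7%. As deposited, the Tubb6 groups were barely apart, with CBR replicate 2 at 25.9907 and DMSO replicate 1 at 25.9975. The 6 kept their direction under each scaling, and 5 of 6 did when either DMSO library or CBR replicate 2 was left out. The largest change was that of Tubb6, -0.27 (SE 0.19, interval -0.71 to 0.17), and that of Tubb4b was -0.11 (SE 0.16). None passed the test (limma, adjusted p = 1). Tuba1c had a fitted change of -0.33 (SE 0.16, interval -0.72 to 0.05) and Tuba3b, the member of this class with the highest value, of 0.23 (SE 0.22), and 4 of the 6 tested alpha-tubulins were below 0. Of the complex genes, Tubgcp2 (-0.42, SE 0.27), Tubgcp4 (-0.21, SE 0.26) and Tubgcp5 (-0.07, SE 0.20) had values below 0. Tubgcp3 (-0.50, SE 0.23) entered the test only through its DMSO values and had to be higher there.

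**Figure D5:**
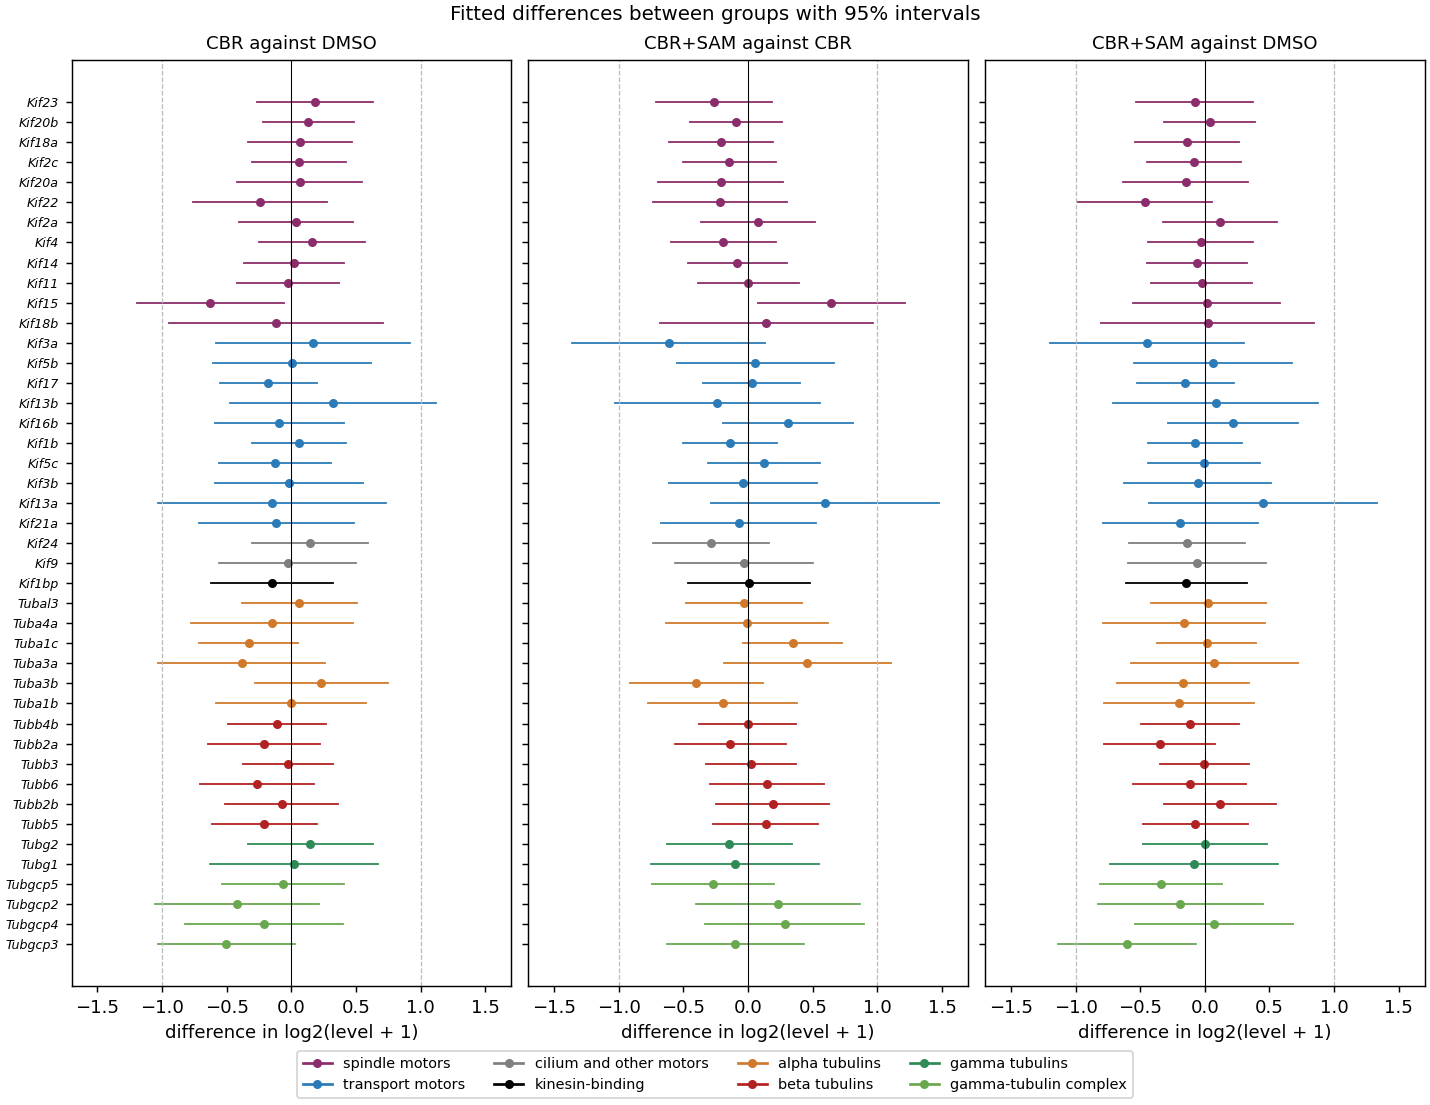
Fitted log2 changes of the 43 tested members with 95% intervals in the comparisons between groups, by class. Intervals of nearly all members include 0. The point estimates of the beta-tubulins lie below 0 in CBR against DMSO, and their intervals include 0.

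CBR+SAM was set against CBR to ask whether added SAM moves the levels in embryos given the inhibitor. Again 0 of 43 members passed (limma, adjusted p of 0.05), against 0.00816% of all genes, which is 1 gene. At an unadjusted p under 0.05 there was 1 member, against 3.09% of all genes. This member was Kif15, at 4.25 ± 1.24 with CBR+SAM and 2.32 ± 0.228 with CBR (SD, n = 2), a log2 change of 0.64 (SE 0.24, interval 0.07 to 1.21, adjusted p = 0.988 with limma). Without CBR+SAM replicate 2 it was 0.40. CBR enters both comparisons in which Kif15 had a small p, so they share its 2 low libraries. Tuba1c had a change of 0.34 (SE 0.16, interval -0.04 to 0.73) and was higher in both CBR+SAM libraries than in both CBR libraries, with 0.27 without CBR+SAM replicate 2. Tuba3a and Tuba3b had opposite fitted changes, 0.46 (SE 0.27) and -0.40 (SE 0.22), which were 0.44 and -0.21 without that library. These genes are near-identical copies, and 45.5% of the 31-base words of Tuba3a are found in Tuba3b. Summed over both copies, the CBR libraries stood at 11.5 and 14.4, below the CBR+SAM libraries at 15.7 and 15.0. The part of shared reads in the opposite changes was not tested. Kif3a, at 47.9 ± 23.7 with CBR+SAM and 69.3 ± 1.56 with CBR (SD, n = 2), had the lowest change, -0.62 (SE 0.32, interval -1.36 to 0.13), and it was -0.10 without CBR+SAM replicate 2. Kif24 had -0.29 (SE 0.19), and -0.14 without it.

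Directions in this comparison depended on that library. With both replicates 18 members were above 0 and 25 below, against 52.4% and 47.6% of all genes, and without it 28 were above and 15 below. For splits without that library, here and below, no share of all genes is given, so they do not set these genes apart from all genes. Spindle motors split 4 to 8 with both replicates, with a median of -0.12, and 6 to 6 without CBR+SAM replicate 2. Transport motors split 5 to 5 with both and 8 to 2 without it. Groups did not overlap for 3 members higher and 4 lower, against 15% and 12.5% of all genes. Kif5b had a change of 0.06 (SE 0.26) with both replicates. Without CBR+SAM replicate 2 it was 0.47 (interval 0.15 to 0.79, adjusted p = 0.999 with limma), a value that rests on 1 CBR+SAM library, assumed to vary like the other groups.

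CBR+SAM was compared with DMSO for what remained different when SAM was given with the inhibitor. None of the 43 members passed (limma, 0 called, against 0.00816% of all genes), and 1 had an unadjusted p under 0.05, against 2.14%. That member was Tubgcp3, with -0.60 (SE 0.23, interval -1.13 to -0.07), which the filter had kept through DMSO, and -0.69 without CBR+SAM replicate 2. Kif22 stood at 27.4 ± 8.46 with CBR+SAM and 37.3 ± 2.46 with DMSO (SD, n = 2). Its change was -0.46 (SE 0.22, interval -0.98 to 0.06), and -0.15 without CBR+SAM replicate 2. Tubb2a had -0.35 (SE 0.18), and -0.15 without that library. The highest values among those with the smallest p were 0.45 for Kif13a (SE 0.37), 0.22 for Kif16b (SE 0.21) and 0.12 for Tubb2b (SE 0.19), and all 3 were below 0 without CBR+SAM replicate 2. In all, 14 members were above 0 and 29 below, against 49% and 51% of all genes, and without CBR+SAM replicate 2 the split was 21 to 22. Groups did not overlap for 0 members higher and 5 lower, against 12.4% and 12.1%.

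The intervals show what these comparisons could resolve. Of the 43 tested members the 95% interval lay within 1 of 0 on the log2 scale for 37 in CBR against DMSO (87.2% of all genes), for 38 with CBR+SAM set against CBR (84.6%), for 40 with CBR+SAM set against DMSO (86.6%) and for 41 between replicate numbers (92.7%). For the 31 members with a mean of at least 10, the first 3 counts were 29, 28 and 30, compared with 95.4%, 91.6% and 93.7% of all genes of that level. The median interval of these members reached 0.441 to either side. A 2-fold change of these members thus lay outside most of the intervals.

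Same-numbered replicates were also compared across the groups, since all groups have a replicate 1 and a replicate 2. Of the 43 members 0 passed (limma, with group as a term), against 0.376% of all genes, which is 46 genes. At an unadjusted p under 0.05 there were 3, against 9.67%: Kif18b with a log2 difference of replicate 2 from replicate 1 of 0.61 (SE 0.18, adjusted p = 0.337 with limma), Tuba3a with 0.41 (SE 0.17, adjusted p = 0.513) and Kif13b with -0.52 (SE 0.20, adjusted p = 0.493). Kif18b was higher in all 3 second replicates, and it passed the filter only through them. Its replicate 1 values reached 1 with CBR+SAM alone (1.02), so its difference is not independent of the filter. Tubg1 was lower in all 3 second replicates, with -0.41 (SE 0.17), and so was Kif3b, with -0.32 (SE 0.16). The value of Kif2a was 0.16 (SE 0.14). With either CBR+SAM library left out, that of Tubg1 was -0.20 and that of Kif2a 0.011.

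The partners of these genes were read from lists of dynein, microtubule nucleation, spindle assembly, tubulin folding and other kinesin genes. Of 103 genes 90 were tested, and 0 passed in the 3 comparisons between groups (limma). At an unadjusted p under 0.05 there were 1, 4 and 0 in the order above, against 2.12%, 3.09% and 2.14% of all genes. The 2 highest of each list were Birc5 (survivin, of the chromosomal passenger complex) at a mean of 1631, the dynein light chain Dynll1 at 1140, the spindle protein Nusap1 at 1014, the tubulin cofactor Tbca at 435, Dynlrb1 at 247, the centriole kinase Plk4 at 228, the minus-end motor Kifc1 at 226, Mzt1 of the gamma-tubulin ring at 162, the severing enzyme Katna1 at 120, and the kinetochore motor Cenpe at 89.1. In CBR against DMSO 51 were above 0 and 39 below, against 48.3% and 51.7% of all genes. In the spindle assembly list 18 of 28 were above 0, and the groups did not overlap for 11 higher and 2 lower, against 15.7% and 17.3% of all genes. After scaling to the same sum these were 8 and 5, against 11.5% and 21.9%. In CBR+SAM against CBR 31 were above 0 and 59 below, against 52.4% and 47.6% of all genes, with a median of -0.10. Without CBR+SAM replicate 2 the split was 34 to 54 with a median of -0.03.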

How the data were processed

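Each gene had 1 deposited signal value in each of the 6 libraries, an abundance divided by transcript length. The submitters' processing notes list the build mm10 and the tools fastp, kallisto and DESeq2, without versions or roles. Columns summed to 956209 (DMSO replicate 2) up to 1059424 (CBR+SAM replicate 2), so a further scaling had been applied that is not given in the sources used here. The values carry no depth, so no counting intervals were drawn. Identifiers were matched to GENCODE M21 for 35820 of 36065 genes.

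The 12249 genes that reached 1 in 2 or more libraries were tested on log2(value + 1). The test was that of limma 3.58.1 (R 4.3.3) with a trend of variance on mean, all 6 libraries in 1 fit with 3 residual degrees of freedom, and Benjamini-Hochberg adjustment over all genes tested. Changes on this scale understate those of low genes. No source says that replicates came from separate animals, so p-values reflect the spread of these libraries alone. Named were members with a mean of at least 20, the highest of each class, the 3 smallest p-values per direction and comparison and the 2 highest genes of each partner list. Others were added after their values were seen. The members and lists were chosen with earlier results of these data known. Sequences are from RefSeq (GRCm38.p6) and GENCODE M21. Alternatives were other pseudocounts, filters and scalings, protein-coding genes alone, no trend, a replicate block, 4 libraries alone and leaving out each library.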

Additional observations from a re-analysis of the deposited data

How the results depend on the processing

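No member passed the adjusted threshold (0 called) in any of the 4 comparisons under any alternative run with limma. Of 341 recomputed values of 24 named changes, 337 kept their direction and 4 reversed, and the smallest adjusted p was 0.0926. Leaving out single libraries gave -0.086 to 0.73 for Kif13b in CBR against DMSO and, in CBR+SAM against DMSO, -0.11 to 1.01 for Kif13a, -0.042 to 0.48 for Kif16b and -0.027 to 0.26 for Tubb2b. The mean log2 ratio of spindle to transport motors was 2.34, 2.05 without Kif23 and Kif3a, and 2.85 from the median of log2(value + 1) over the members of each class; the cause was not tested. Members with an unadjusted p under 0.05 depended on CBR+SAM replicate 1. Without it they were 13 of 43 for CBR+SAM against CBR (2369 of 12129 genes) and 10 of 43 against DMSO (2035 genes), where there was 1 in each with it. The remaining CBR+SAM library is then assumed to vary like the DMSO and CBR pairs.

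Over all genes, calls in CBR against DMSO were 0, with 1 from the 4 libraries alone and 0 to 2 with a library left out. In CBR+SAM against CBR they were 1, with 0 at a pseudocount of 0.1, without filter, at a mean of at least 10 and for protein-coding genes alone, and 0 to 8 with a library left out. In CBR+SAM against DMSO they were 1, with 0 under the same settings and from the 4 libraries alone, and 0 to 3 with a library left out. Between replicate numbers they were 46, with 1 without filter, 26 at a mean of at least 10, 114 without the group term and 40 to 215 with a library left out. A replicate block called 0 members in each comparison and 0, 1 and 1 of all genes, so it changed no call. Correlations of replicate differences between groups were 0.392, 0.218 and 0.0911, and the labels do not say that a number marks a shared batch. With 2 libraries a group, and depth unknown, small changes of low genes are beyond these data.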

Other observations

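Kifc1 and Kifc5b, minus-end motors that share sequence and lie outside the symbol rule, differed between replicate numbers in opposite directions. Kifc1 stood at 249.8 and 188.5 (DMSO), 233.4 and 198.1 (CBR), and 284.5 and 201.3 (CBR+SAM) (replicates 1 and 2), so that all 3 first replicates were above all 3 second replicates. Kifc5b stood at 5.005 and 9.19, 6.20 and 10.1, and 4.16 and 11.4, the other way round. The log2 difference of replicate 2 from replicate 1 was -0.38 (SE 0.11, adjusted p = 0.349 with limma) for Kifc1 and 0.88 (SE 0.17, adjusted p = 0.15 with limma) for Kifc5b, and neither passed. Of the 31-base words of Kifc5b 49.9% are found in Kifc1. The part of shared reads in this difference was not tested. The pair was chosen after its values were seen.

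Fam166a, whose transcripts share 4.37% of the words of Tubb4b, stood at 60.4 in CBR+SAM replicate 2 and at 10.3 to 16.8 in the other 5 libraries. In the same library Tubb4b had its lowest value, 148. This gene too was chosen after its values were seen.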
